A study of Mus musculus with 92 samples.

Results

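Goblet cells are the mucus-secreting cells of the intestinal lining, and 8 genes that mark them were followed here through every group of a study of the translation factor gene Eif4g2 in the mouse intestine. The 8 genes, Muc2, Fcgbp, Clca1, Zg16, Tff3, Agr2, Spdef and Gfi1, were taken by symbol from the 54532 genes of the raw count tables, and each symbol matched 1 gene. RNA-seq counts came from 92 libraries in 21 groups. In tissue, crypts and villi were taken from mice whose Eif4g2 alleles were flox/flox or flox/+ and which all carried a tamoxifen-activated Cre (CreER) and had all received tamoxifen. The first tissue set used Rosa26-CreER on day 9 and held 4 flox/flox and 5 flox/+ crypt libraries and 5 villus libraries of each genotype. Rosa26 drives CreER in all cell types, so deletion is not limited to the epithelium. The second tissue set used Vil1-CreER, which acts in the intestinal epithelium, 3 months after 4 daily injections at 100 mg/kg, with 3 flox/flox and 4 flox/+ crypt libraries and 6 flox/flox and 4 flox/+ villus libraries. Controls therefore also carried CreER and 1 floxed copy that it can delete.

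Organoids are epithelial cultures that grow from intestinal stem cells and hold no stroma or immune cells. The first organoid set held 3 Eif4g2 flox/flox, Rosa26-CreER lines, each given DMSO or 0.5 µM 4-hydroxytamoxifen (4-OHT, the active form of tamoxifen) for 24 h and collected on day 6. In the second set, all given 0.5 µM 4-OHT for 24 h and collected on day 6, 4 lines each were flox/flox, flox/+ or +/+ with CreER. Fetal intestinal spheroids, which are hollow cultures from fetal epithelium, came as 6 flox/flox and 5 flox/+ CreER lines. Each was given DMSO or 0.5 µM 4-OHT for 24 h and collected on day 6. The sample titles of both organoid sets and of the spheroids give ENR as the medium. In the A-485 series 4 Rosa26-CreER organoid lines without 4-OHT were cultured with DMSO or with 3, 5 or 10 µM A-485, which blocks the acetyltransferase activity of p300 and CBP toward histones, for 4 days. Line S6026 of that series was Eif4g2 +/+ and the other 3 were flox/flox.

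Goblet cells arise from crypt progenitors that escape Notch signalling and turn on the transcription factor Atoh1; Gfi1 and Spdef act after it, and the cells then migrate up the villus while filling with mucin granules. Muc2 is the gel-forming mucin that makes the mucus scaffold. Agr2 is a disulfide isomerase of the endoplasmic reticulum needed for its production. Fcgbp, the lectin Zg16, the trefoil peptide Tff3 and the metalloprotease Clca1, which cleaves Muc2, are secreted with it.

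The promoters of the mucin itself, of an abundant mucus protein and of a transcription factor are shown as the places where regulators of these genes could act; how far the 3 genes moved together differs between the comparisons below. Each sequence is the 250 bases before the RefSeq transcription start on the build GRCm38.p6, 5′ to 3′ on the gene's strand. They lie at chr7:141690090-141690339 on the plus strand for Muc2, chr7:28070986-28071235 on the plus strand for Fcgbp and chr17:27728952-27729201 on the minus strand for Spdef. Capitals mark matches, on either strand, to TATAAA, to the E-box CAGCTG, to the GATA motif AGATAA or TGATAA, and to the forkhead motif TGTTTAC or TATTTAC.
Muc2: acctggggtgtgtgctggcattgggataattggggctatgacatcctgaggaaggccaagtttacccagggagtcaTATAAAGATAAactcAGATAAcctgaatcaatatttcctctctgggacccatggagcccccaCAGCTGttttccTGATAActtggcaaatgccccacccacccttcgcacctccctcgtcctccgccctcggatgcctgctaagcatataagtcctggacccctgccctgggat
Fcgbp: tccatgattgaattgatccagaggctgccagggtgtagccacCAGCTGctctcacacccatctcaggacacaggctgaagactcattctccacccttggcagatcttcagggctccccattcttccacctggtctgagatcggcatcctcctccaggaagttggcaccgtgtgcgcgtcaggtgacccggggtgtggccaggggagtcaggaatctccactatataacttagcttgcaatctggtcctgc
Spdef: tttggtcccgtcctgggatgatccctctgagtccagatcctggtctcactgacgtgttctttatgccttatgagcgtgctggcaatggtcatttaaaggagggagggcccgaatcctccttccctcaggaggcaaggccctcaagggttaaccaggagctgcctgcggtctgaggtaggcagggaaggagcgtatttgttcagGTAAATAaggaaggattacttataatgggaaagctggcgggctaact
The Muc2 window held TATAAA starting at -174, which shares a base with AGATAA at -169, a second AGATAA at -159, CAGCTG at -112 and TGATAA at -100. The Fcgbp window held CAGCTG at -208, and the Spdef window held the forkhead motif at -47, on the opposite strand. Among 32851 promoter windows of this length, 12.37% held TATAAA, 13% held CAGCTG, 16.6% held AGATAA or TGATAA and 5.76% held TGTTTAC or TATTTAC. The promoter windows of Agr2 and Gfi1 held none of these motifs. Promoter sequences of Tff3, Clca1 and Zg16 are not shown.

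Total counts ran from 8652040 to 37611126 per library, with the A-485 series lowest at 8652040 to 16436145. Eif4g2 itself stood at 439.1 to 470.2 CPM (depth-scaled counts, edgeR's CPM after TMM scaling over the 92 libraries) in flox/+ and 91.48 to 129 CPM in flox/flox Rosa26-CreER crypts. In flox/flox organoids of the first set it was 580 to 654.5 CPM with DMSO and 119.7 to 121.5 CPM with 4-OHT. The range was 644 to 1018 CPM in flox/flox spheroids with DMSO and 77.03 to 198.7 CPM with 4-OHT. In Vil1-CreER villi it was 419.4 to 543.8 CPM in flox/+ and 154.8 to 216.6 CPM in flox/flox, and in Vil1-CreER crypts 540.4 to 612.2 and 286.4 to 304.8 CPM, the smallest fall of the tissue groups. Eif4g2 was lower where the label says that both copies were deleted in each of these. The summed level of 5 pan-epithelial genes was 3898 to 18100 CPM in every library, and that of 6 immune genes was at most 0.7712 CPM in cultures. In bulk RNA, fewer goblet cells and less goblet RNA per cell cannot be told apart, here or below.

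By group mean, the secreted products Muc2, Fcgbp, Clca1, Zg16 and Tff3 were highest in villi of flox/+ mice and the transcription factors Spdef and Gfi1 in flox/+ Rosa26-CreER crypts (the plot of member levels by group). Scaled by library totals in place of TMM, Tff3 was highest in flox/+ spheroids with DMSO (987.1, against 645.4 in flox/+ Rosa26-CreER villi). Fcgbp was then highest at 3 µM A-485 (6880, against 5774 in those villi), and the other members kept their top group. Agr2 was highest in flox/+ spheroids, at 525.3 ± 182.7 CPM with 4-OHT (SD, n = 5), with 81.1 CPM in flox/+ Rosa26-CreER villi. Per kilobase of the deposited gene length, in flox/+ Rosa26-CreER villi, Zg16 (3480 CPM per kb) and Tff3 (2347) stood above Fcgbp (995.6) and Clca1 (595.4). Muc2 (130.5) and Agr2 (62.82) followed, and the transcription factors Spdef (5.694) and Gfi1 (1.539) were lowest. Group means of Fcgbp ranged from 10450 ± 3522 CPM (SD, n = 5) in those villi to 184.8 ± 64.89 CPM (SD, n = 4) at 10 µM A-485. Of the 20 pairs of neighbours in the order of group means, 3 had no overlapping libraries for Agr2, 1 each for Tff3, Clca1, Fcgbp and Spdef, and 0 for Muc2, Zg16 and Gfi1, so the order of most neighbouring groups was not separated by their libraries.

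**Figure D1:**
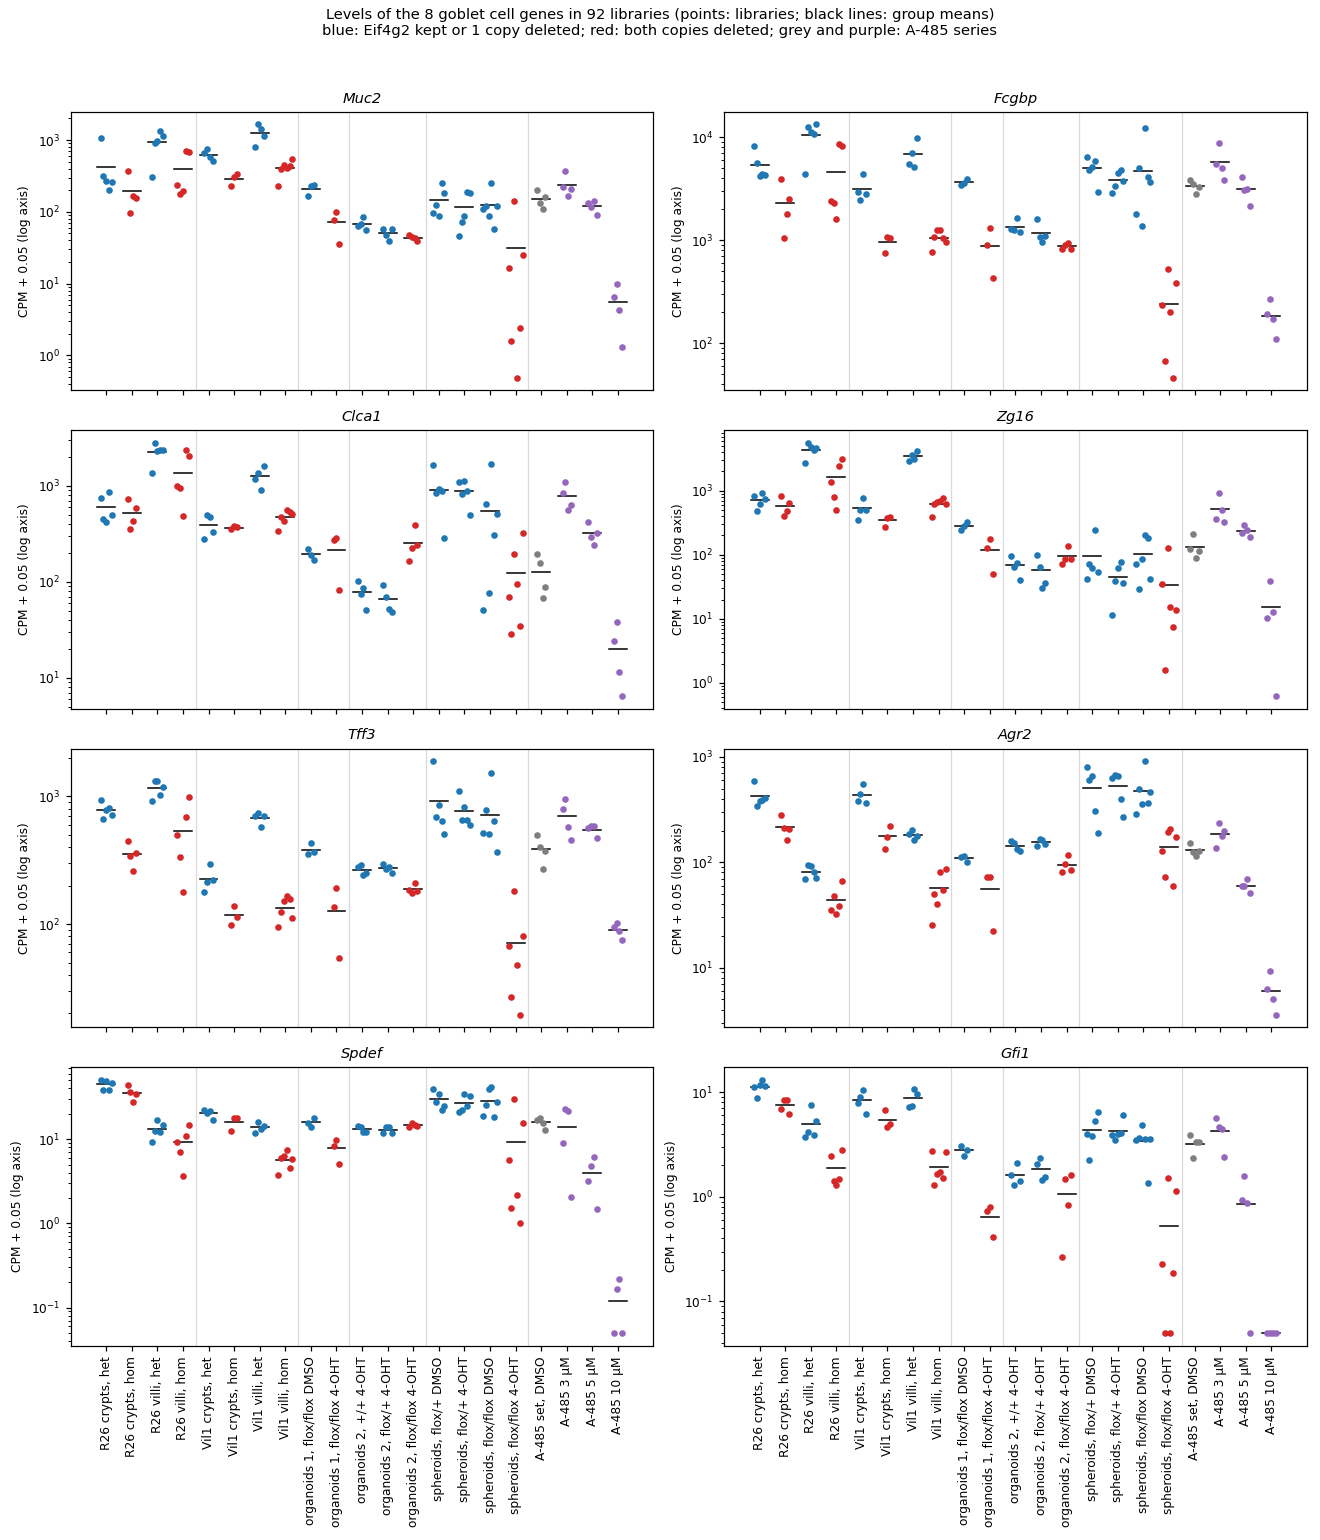
Level of each of the 8 goblet genes in the 92 libraries by group, as CPM after TMM scaling plus 0.05 on a log axis. Points are libraries and black lines group means, in blue with 1 or more copies of Eif4g2 kept, red with both deleted, and grey or purple in the A-485 series. Gfi1 had 0 reads in all 4 libraries at 10 µM.

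For likeness, log2 levels were centred within each of the 6 experimental sets, so differences between sets do not enter. Member levels were also scaled to equal spread before averaging. The member most like the others was Fcgbp, whose centred log2 level had a Pearson r of 0.942 with the mean of the other 7 over the 92 libraries. Clca1 (0.735), Zg16 (0.737) and Agr2 (0.739) were least like the others, at nearly the same value. Among 10863 genes with a mean of at least 5 CPM, the 10 with the highest correlation with the mean of the members were Bcas1 (0.954), Hepacam2 (0.947), Atp2a3 (0.937), Fer1l6 (0.922), Tpsg1 (0.921), Capn9 (0.918), Atoh1 (0.905), Ano7 (0.902), Rep15 (0.875) and Sytl2 (0.859). Spearman's rho was 0.919 for Bcas1 and 0.905 for Hepacam2. The libraries share genotype, tissue and depth, so these values are a description.

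Villi and crypts of the same flox/+ mice were compared first. Zg16 and Clca1 were higher in villi, and Agr2 and Spdef higher in crypts, with both drivers. In Rosa26-CreER mice Zg16 read 836, 474, 626, 923 and 736 CPM in crypts and 2711, 5592, 4745, 4243 and 4583 CPM in villi, with no overlap, a log2 difference of 2.60 ± 0.22 (SE, adjusted p = 3.95e-07). Adjusted p-values here and below are from edgeR's quasi-likelihood test with Benjamini-Hochberg adjustment over all genes tested, and a gene was called where the adjusted p was under 0.05. Clca1 differed by 1.90 ± 0.24 (adjusted p = 1.37e-05). Agr2 read 586, 345, 384, 386 and 407 CPM in crypts and 69.3, 93.7, 91.2, 80.3 and 71.0 CPM in villi, a log2 difference of -2.39 ± 0.16 (adjusted p = 3.73e-08). The regulator Spdef differed by -1.78 ± 0.16 (adjusted p = 6.97e-07) and Gfi1 by -1.21 ± 0.21 (adjusted p = 0.000238). In all, 4 members were called higher in villi, beside 36.4% of the genes tested, and 3 lower, beside 40.6%. In Vil1-CreER mice 5 members were called higher (32.7% of genes) and 2 lower (35.2%), with Zg16 at 2.70 ± 0.26, Clca1 at 1.68 ± 0.25, Agr2 at -1.26 ± 0.16 and Spdef at -0.54 ± 0.14. Gfi1 did not differ there beyond its error (0.06, adjusted p = 0.827).

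This axis is the comparison where scaling matters most. Library totals in place of TMM moved the median of all genes by -0.964 in Rosa26-CreER and -0.611 in Vil1-CreER mice. Tff3 (0.56 under TMM) then stood at -0.414 and Fcgbp (0.95) at -0.024 in the first, and Gfi1 at -0.525 in the second, where Muc2 (1.01 under TMM) fell to 0.416 and Fcgbp (1.12) to 0.54, without a call. The directions of Zg16, Clca1, Agr2 and Spdef were the same under both scalings. With the animal as a block, Fcgbp in Rosa26-CreER mice was at 0.95 (adjusted p = 0.0503). Summed enterocyte markers were 46260 to 66470 CPM in these villi and 1790 to 3227 CPM in the crypts, and their part in the result was not tested.

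Deletion of both Eif4g2 copies was then compared with deletion of 1. In Rosa26-CreER crypts the trefoil peptide Tff3, the isomerase Agr2, Fcgbp and Gfi1 fell to under their level in any control mouse. The cleaving protease Clca1 and the lectin Zg16 were near their control level. Tff3 read 935, 666, 778, 810 and 717 CPM in flox/+ and 445, 342, 261 and 361 CPM in flox/flox crypts, a log2 change of -1.15 ± 0.17 (adjusted p = 0.00231). Agr2 read 586, 345, 384, 386 and 407 CPM against 279, 212, 163 and 205 CPM, a change of -0.97 ± 0.20 (adjusted p = 0.0096). Neither gene's groups overlapped. In every comparison overlap is given as a description, since its share over all genes was not counted. Fcgbp (-1.22 ± 0.38, adjusted p = 0.0489) and Gfi1 (-0.59 ± 0.17, adjusted p = 0.0345) were also called, again without overlap. Thus 4 of 8 members fell, beside 11.6% of the genes tested. Muc2 read 1079, 312, 268, 203 and 258 CPM in flox/+ and 367, 97.0, 165 and 158 CPM in flox/flox crypts. These groups overlapped, and its log2 change of -1.11 ± 0.58 (adjusted p = 0.201) had a 95% interval of -2.411 to 0.197. Without flox/+ replicate 1, the high library, the Muc2 change was -0.40 (adjusted p = 0.501), and without flox/flox replicate 1 it was -1.60 (adjusted p = 0.102). For Clca1 the value was -0.18 (95% interval -0.811 to 0.444), for Zg16 -0.29 (-0.852 to 0.267) and for Spdef -0.32 (-0.658 to 0.021). The median over the members was -0.781, against 0.044 over all genes.

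Other properties moved with genotype in the Rosa26-CreER set. Y-linked transcripts (4 genes summed to at least 5 CPM) were present in 5 of 5 flox/+ mice but in 1 of 4 flox/flox crypt and 2 of 5 flox/flox villus libraries. Since every flox/+ mouse had these transcripts, a Y-linked covariate left the crypt change resting on the 1 flox/flox library that had them. In that fit Tff3 was at -0.79, Clca1 at 0.321, Zg16 at 0.221 and Spdef at 0.017, values that 1 library cannot decide. Mitochondrial genes took 13.7% to 25.2% of counts in flox/flox and 6.24% to 12.4% in flox/+ crypts, summed Paneth markers were 2927 to 12560 against 20190 to 27120 CPM, and summed immune markers 85.16 to 2199 against 114.1 to 430.7 CPM. The part of the last 3 in the result was not tested. With any 1 of the 9 libraries left out 2 or 3 members were called, since Fcgbp lost its call in 8 of 9 cases (adjusted p up to 0.11) and Gfi1 in 5 (adjusted p up to 0.0766).

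In Rosa26-CreER villi Gfi1, Zg16, Tff3 and Agr2 fell, but the flox/flox mice differed widely from each other. Agr2 read 69.3, 93.7, 91.2, 80.3 and 71.0 CPM in flox/+ and 34.9, 48.2, 32.1, 38.7 and 65.9 CPM in flox/flox villi, a log2 change of -0.92 ± 0.19 (adjusted p = 0.00443). Gfi1, which represses alternative fates in secretory progenitors, read 3.68, 4.158, 7.561, 3.828 and 5.303 CPM against 2.388, 1.363, 1.262, 1.444 and 2.769 CPM, a change of -1.44 ± 0.32 (adjusted p = 0.00553). These were the members with no overlap. Zg16 (-1.44 ± 0.46, adjusted p = 0.0341) and Tff3 (-1.14 ± 0.38, adjusted p = 0.0399) were called with overlapping groups, making 4 of 8 lower, beside 18.2% of the genes tested. Fcgbp read 4429, 12527, 11254, 10709 and 13336 CPM in flox/+ and 2391, 2294, 1623, 8637 and 8290 CPM in flox/flox villi. Its change was -1.21 ± 0.52 (adjusted p = 0.0963), that of Muc2 -1.26 ± 0.51 (adjusted p = 0.0822), that of Clca1 -0.75 ± 0.39 (adjusted p = 0.161) and that of Spdef -0.56 ± 0.32 (adjusted p = 0.198). The flox/flox mice with high mucus genes, replicates 4 and 5, had no Y-linked transcripts, and replicate 3, which had none either, had the lowest Fcgbp level. With a Y-linked covariate the villus change rested on flox/flox replicates 1 and 2, the libraries that had these transcripts. Muc2 (-2.19, adjusted p = 0.0418) and Fcgbp (-2.19, adjusted p = 0.0398) were called in that fit, and Tff3 (-1.50, adjusted p = 0.0732) and Gfi1 (-1.41, adjusted p = 0.0517) were not. Leaving out 1 library gave 2 to 6 called members: Tff3 was lost in 8 of 10 cases (adjusted p up to 0.0909) and Zg16 in 6 (up to 0.0738). Muc2 gained a call without flox/flox replicate 5 (adjusted p = 0.0483) or flox/+ replicate 1 (0.0358), and Fcgbp without flox/flox replicate 4 (0.0498) or 5 (0.0488).

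With the epithelial driver Vil1-CreER the transcripts of Muc2, Fcgbp, Agr2 and Tff3 fell in crypts. Muc2 read 650, 751, 583 and 508 CPM in flox/+ and 227, 305 and 336 CPM in flox/flox crypts, a log2 change of -1.14 ± 0.17 (adjusted p = 0.00218). Fcgbp read 2965, 2437, 4411 and 2833 against 751, 1080 and 1051 CPM, a change of -1.76 ± 0.25 (adjusted p = 0.00171). Agr2, which folds the mucin, changed by -1.35 ± 0.22 (adjusted p = 0.00371) and Tff3 by -0.995 ± 0.20 (adjusted p = 0.00862). None of these 4 overlapped between genotypes, and 4 of 8 were called lower, beside 17.7% of the genes tested. Clca1 read 277, 502, 470 and 330 in flox/+ and 355, 380 and 373 CPM in flox/flox crypts, so that all flox/flox mice lay within the control range (-0.14, 95% interval -0.601 to 0.331). Zg16 (-0.65 ± 0.28, adjusted p = 0.134), Spdef (-0.36 ± 0.17, adjusted p = 0.139) and Gfi1 (-0.68 ± 0.23, adjusted p = 0.0564) did not pass the test, although Gfi1 did without flox/+ replicate 4 (adjusted p = 0.0282). Mitochondrial genes took 30.4% to 40.3% of counts in flox/flox and 17.5% to 30.8% in flox/+ crypts, and summed Paneth markers were 452.8 to 1156 against 3761 to 8244 CPM, whose part was not tested.

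All 8 members fell in Vil1-CreER villi, and the 6 flox/flox mice lay below the 4 flox/+ mice for each gene. The share of all genes called lower was 21.6%. The largest change was that of Fcgbp, which read 5539, 7039, 5164 and 9729 CPM in flox/+ and 764 to 1258 CPM (median 1056) in flox/flox villi (-2.71 ± 0.21, adjusted p = 7.19e-07). Zg16 read 2924, 3619, 3071 and 4158 against 389 to 776 CPM (median 645.1), a change of -2.47 ± 0.19 (adjusted p = 6.03e-07). Tff3 went from 699, 736, 578 and 701 CPM to 95.5 to 165 CPM (median 137.6), a change of -2.35 ± 0.17 (adjusted p = 3.37e-07). Among the regulators, Gfi1 fell by 2.22 ± 0.26 on the log2 scale (adjusted p = 2.23e-05) and Spdef by 1.32 ± 0.20 (adjusted p = 0.000214). Agr2 changed by -1.70 ± 0.27 (adjusted p = 0.000364) and Muc2 by -1.63 ± 0.23 (adjusted p = 0.000115). Clca1, with 1189, 1367, 902 and 1613 CPM in flox/+ and 337 to 565 CPM (median 488.9) in flox/flox villi, fell by 1.43 ± 0.18 (adjusted p = 4.23e-05). All 8 calls were kept under every alternative run. Summed immune markers were 40.33 to 179.8 CPM in flox/flox and 231.5 to 407.5 CPM in flox/+ villi. Those of tuft cells were 4.541 to 8.01 against 83.24 to 130.8 CPM, of enteroendocrine cells 56.29 to 106.2 against 314.3 to 554.9 CPM and of Paneth cells 30.02 to 114.1 against 155.7 to 399.2 CPM. The part of these in the result was not tested.

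The genotype effect of villi was tested against that of crypts as an interaction. In Vil1-CreER mice Eif4g2 itself was less reduced in crypts than in villi (levels above), and the part of this in the interaction was not tested. In these mice 5 of 8 members fell more in villi, beside 6.14% of the genes tested: Zg16 (-1.80 ± 0.33, adjusted p = 0.00295), Gfi1 (-1.51 ± 0.36, adjusted p = 0.0113), Tff3 (-1.33 ± 0.26, adjusted p = 0.00461), Clca1 (-1.27 ± 0.29, adjusted p = 0.00887) and Spdef (-0.93 ± 0.27, adjusted p = 0.0281). Library totals moved the median of all genes by 0.295, and the call of Spdef was then lost (-0.632, adjusted p = 0.206). It was also lost without any of 5 libraries, flox/+ crypt replicate 4, flox/flox crypt replicates 2 and 3 or flox/+ villus replicates 2 and 4 (adjusted p up to 0.0795), and Fcgbp was called without flox/+ crypt replicate 3 (adjusted p = 0.0285). In Rosa26-CreER mice none of the 8 passed, beside 11.5% of the genes tested in either direction.

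**Figure D2:**
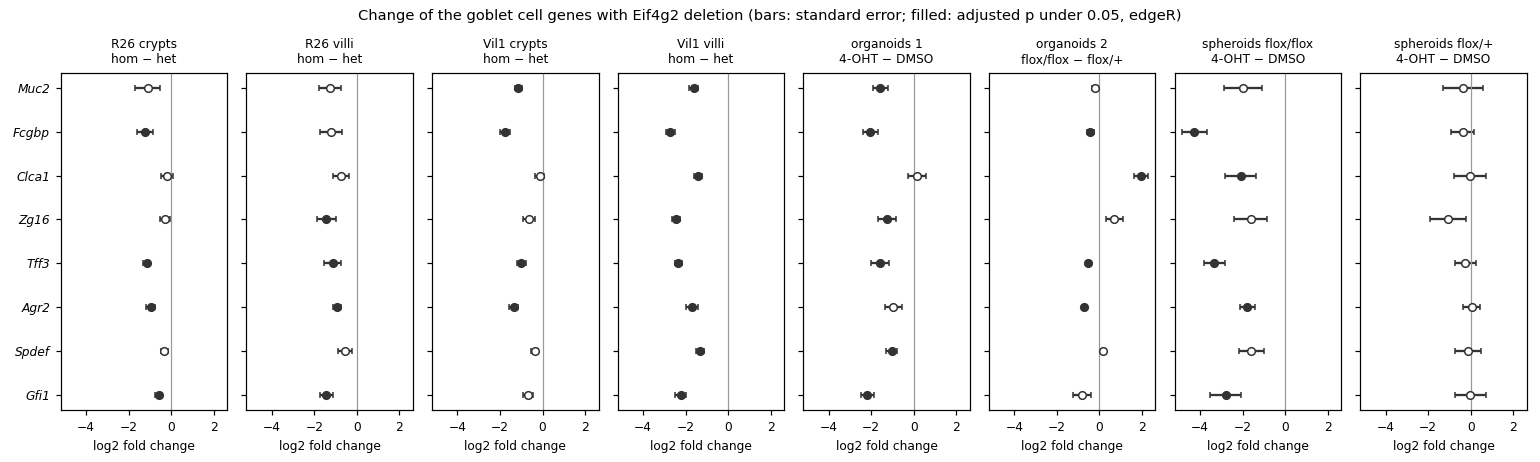
Log2 fold change of the 8 goblet genes after loss of both Eif4g2 copies (flox/flox against flox/+ in tissue and in the second organoid set, 4-OHT against DMSO in the first organoid set and spheroids) and, as the last set, after 4-OHT in flox/+ spheroids, with bars of 1 SE. Filled points passed an adjusted p of 0.05. In the first organoid set, which held flox/flox lines only, 4-OHT itself and the loss of Eif4g2 cannot be told apart. All 8 points lie below 0 in Vil1-CreER villi, and Clca1 lies above 0 in the second organoid set.

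Genes outside the 8 that serve goblet cells were followed in lists. Of all genes tested, 11.6%, 17.7%, 18.2% and 21.6% were called lower and 8.63%, 11.6%, 15% and 20.9% higher in Rosa26-CreER crypts, Vil1-CreER crypts, Rosa26-CreER villi and Vil1-CreER villi, beside which the counts below stand. Of the lineage regulators, 9 of 12 tested fell in Rosa26-CreER crypts, 10 of 12 in Vil1-CreER crypts (1 rose), 5 of 11 in Rosa26-CreER villi (2 rose) and 6 of 11 in Vil1-CreER villi (2 rose). Atoh1, which starts the secretory fate, fell by 1.40 ± 0.12 (adjusted p = 0.00025) in the first and by 2.37 ± 0.17 (adjusted p = 4.09e-07) in the last. It was at -0.88 ± 0.36 (adjusted p = 0.0849) in Rosa26-CreER villi. Foxa3 changed by -1.49 ± 0.15 in Rosa26-CreER crypts and -2.23 ± 0.22 in Vil1-CreER villi, and Creb3l4 by -2.20 ± 0.19 and -3.15 ± 0.29. The list also holds Hes1, which opposes the secretory fate, and Foxa1, which rose in Vil1-CreER crypts (0.49 ± 0.12, adjusted p = 0.0201). Klf4, a late goblet factor, rose in Rosa26-CreER villi (0.91 ± 0.11, adjusted p = 0.000205) and was at -0.997 ± 0.35 (adjusted p = 0.0773) in Vil1-CreER crypts.

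Of 9 folding and stress-sensor genes of the endoplasmic reticulum, 3 fell in Rosa26-CreER crypts and 6 in Vil1-CreER crypts, whereas in villi 4 of 8 rose and 1 fell with Rosa26-CreER and 2 of 9 rose and 2 fell with Vil1-CreER. Ern2, the stress sensor particular to mucin-secreting epithelia, fell by 1.34, 1.51, 2.04 and 1.68 in Rosa26-CreER crypts, Vil1-CreER crypts, Rosa26-CreER villi and Vil1-CreER villi. The general chaperone gene Hspa5 rose by 0.87 ± 0.16 (adjusted p = 0.00189) in Rosa26-CreER villi. Granule exocytosis genes fell without a rise (6, 7, 6 and 9 of 12 in that order), led by Rab3d at -1.56, -1.35, -1.53 and -1.89. Of 22 O-glycosylation genes 7, 8, 7 and 6 fell and 1, 0, 6 and 4 rose; in Vil1-CreER villi the share that fell (27.3%) was near that of all genes. Galnt5, which adds the first sugar, changed by -1.65 ± 0.23 in Rosa26-CreER and -2.50 ± 0.35 in Vil1-CreER crypts. Other goblet products fell in 11 of 16, 13 of 15, 7 of 14 and 11 of 14 cases and rose in 0, 1, 2 and 2, with Klk1 at -3.34 ± 0.35 (adjusted p = 0.000597) in Rosa26-CreER crypts. In that list the chloride channel gene Ano1 rose, by 4.02 ± 0.33 (adjusted p = 1.14e-06) in Vil1-CreER villi. The membrane mucin Muc4, in the list of other mucins and trefoil peptides, changed by -3.64 ± 0.42 in Rosa26-CreER and -3.58 ± 0.33 in Vil1-CreER crypts, where 1 of 7 (14.3%, near the share of all genes) and 3 of 7 genes of that list were called lower.

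Organoid cultures show the deletion in epithelium without stroma. In the first organoid set 4-OHT lowered 6 of 8 members, beside 17.2% of the genes tested. This set held no flox/+ or +/+ line, so 4-OHT with CreER and the loss of Eif4g2 cannot be told apart in it. The mucin Muc2 read 167, 232 and 234 CPM in lines S6070, S6072 and S2080 with DMSO and 77.6, 101 and 35.4 CPM with 4-OHT, a log2 change of -1.57 ± 0.36 (adjusted p = 0.0136). Fcgbp read 3415, 3567 and 3951 against 909, 1304 and 433 CPM (-2.05 ± 0.36, adjusted p = 0.0051). Gfi1 read 3.002, 2.412 and 2.776 against 0.6831, 0.7489 and 0.3611 CPM (-2.19 ± 0.30, adjusted p = 0.00204). Spdef changed by -1.04 ± 0.24 (adjusted p = 0.0149), Tff3 by -1.59 ± 0.40 (adjusted p = 0.0204) and Zg16 by -1.26 ± 0.41 (adjusted p = 0.0473). The 3 lines did not overlap between treatments for these 6 genes or for Agr2 (below), and line S2080 with 4-OHT was the lowest library for each of them. Clca1 was the exception: it read 219, 192.5 and 170 CPM with DMSO and 273.5, 285 and 83.3 CPM with 4-OHT, higher in 2 lines and lower in S2080 (0.14 ± 0.41, 95% interval -0.825 to 1.104).

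Agr2 read 113, 116 and 99.7 against 73.2, 72.1 and 22.3 CPM (-0.97 ± 0.40, adjusted p = 0.1); with the line as a block it was called (-1.14, adjusted p = 0.0276). Without line S2080's 4-OHT library (replicate 3), Agr2 was called (adjusted p = 0.00186) and Clca1 was called higher (0.528, adjusted p = 0.00786). Tff3 lost its call without 4-OHT replicate 1 (adjusted p = 0.0573) or DMSO replicate 2 (0.0622), and Zg16 without 4-OHT replicate 1 or any DMSO library (adjusted p up to 0.114). Without the low-count filter the number called was 3. Of the lists, 8 of 12 lineage regulators fell and 1 rose, with Foxa3 at -2.36 ± 0.18 and Atoh1 at -1.71 ± 0.31. Of 15 other goblet products 10 fell and 2 rose, of 22 O-glycosylation genes 10 fell and 4 rose, and of 9 folding genes 4 fell, beside 17.2% of all genes lower and 18.2% higher. Other cell types' summed markers were lower with 4-OHT too: Paneth 176.8 to 375.2 against 1518 to 1824 CPM, enteroendocrine 34.25 to 124.9 against 305.4 to 397.1, tuft 2.76 to 4.438 against 15.49 to 17.5, stem 108.5 to 152.9 against 851.5 to 1235 and enterocyte 4082 to 6183 against 8388 to 10840 CPM. Their part in the result was not tested.

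In the second organoid set, where every line received 4-OHT, the changes were smaller and Clca1 rose. Clca1 read 166, 227, 391 and 241 CPM in flox/flox lines, 93.5, 70.1, 52.3 and 48.5 CPM in flox/+ lines and 103, 75.3, 87.4 and 50.6 CPM in +/+ lines. Every flox/flox line lay above every other line, with log2 differences of 1.95 ± 0.33 from flox/+ (adjusted p = 0.00082) and 1.70 ± 0.32 from +/+ (adjusted p = 0.00188). Agr2 read 80.8, 95.2, 117 and 84.8 CPM in flox/flox and 144, 167, 164 and 148 CPM in flox/+ lines (-0.72 ± 0.10, adjusted p = 4.93e-05). Tff3 read 186, 176, 211 and 183 against 298, 268, 282 and 253 CPM (-0.54 ± 0.07, adjusted p = 2.54e-05). Neither Agr2 nor Tff3 overlapped between these genotypes. Fcgbp changed by -0.44 ± 0.16 (adjusted p = 0.0397), a call lost without any flox/flox line or flox/+ replicate 1 (adjusted p up to 0.0994). Against flox/+ lines 1 member was thus higher, beside 22.6% of the genes tested, and 3 lower, beside 24.3%.

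Against +/+ lines, 1 was higher (21.9% of genes) and 4 lower (23.5%), Muc2 (-0.64 ± 0.14, adjusted p = 0.0032) joining the other 3. Both comparisons use the same flox/flox libraries. Muc2 read 48.0, 44.2, 43.3 and 39.6 CPM in flox/flox, 58.1, 48.1, 39.5 and 57.0 in flox/+ and 63.6, 67.6, 85.0 and 55.7 CPM in +/+ lines. The flox/flox and flox/+ lines overlapped (-0.21, 95% interval -0.523 to 0.104), the flox/flox and +/+ lines did not. Zg16 (0.70 ± 0.41, adjusted p = 0.199), Spdef (0.18 ± 0.09, adjusted p = 0.139) and Gfi1 (-0.82 ± 0.40, adjusted p = 0.11) did not pass against flox/+, though Zg16 did without flox/+ replicate 1 (adjusted p = 0.0407). Between flox/+ and +/+ lines no member was called, beside 0.113% of the genes tested in either direction. Against flox/+, 24.3% of all genes were called lower and 22.6% higher, beside which the next counts stand. Among the lists, 8 of 12 lineage regulators fell and 1 rose against flox/+, with Atoh1 at -0.81 ± 0.17 and Creb3l4 at -2.09 ± 0.14. Of 15 other goblet products 11 fell and 2 rose, and of 9 folding genes 6 fell and 1 rose. Hspa5 was the gene that rose (0.19 ± 0.05, adjusted p = 0.0103). Summed markers of other cell types were lower in flox/flox than in flox/+ lines: Paneth 1207 to 1549 against 4651 to 5068 CPM, stem 1168 to 1851 against 4472 to 6335, tuft 5.116 to 8.19 against 26.35 to 42.85 and enteroendocrine 188 to 237.2 against 470.5 to 651.4 CPM. Enterocyte markers overlapped, and the part of these was not tested.

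In fetal spheroids Fcgbp and Tff3 had the most negative fold changes of all the deletion comparisons, a difference between culture systems that was not tested. In flox/flox lines 5 of 8 members were called lower with 4-OHT, beside 10% of the genes tested. Fcgbp read 1815, 5068, 1364, 12217, 4091 and 3698 CPM with DMSO and 234, 67.2, 520, 200.5, 46.3 and 381 CPM with 4-OHT in lines S9484-D, S9488-F, S9484-A, S9488-D, S9488-H and S9020-A. The groups did not overlap, at a log2 change of -4.26 ± 0.57 (adjusted p = 4.74e-05). Tff3 read 513, 777, 504, 1510, 639 and 368 against 67.3, 26.8, 183, 47.8, 19.6 and 80.8 CPM (-3.32 ± 0.49, adjusted p = 0.000123), again without overlap. Agr2 changed by -1.77 ± 0.38 (adjusted p = 0.00251) and Gfi1 by -2.78 ± 0.73 (adjusted p = 0.0106). Clca1, from 51.0 to 1688 CPM with DMSO and 28.4 to 326 CPM with 4-OHT, overlapped widely. It was lower with 4-OHT in 4 of 6 lines and higher in 2, S9484-D (51.0 to 70.3 CPM) and S9484-A (76.2 to 195 CPM). Its call (-2.09 ± 0.71, adjusted p = 0.043) was lost with the line as a block (-1.81, adjusted p = 0.249).

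Muc2 showed how much the lines differed. It read 108, 120, 88.5, 254, 56.9 and 123 CPM with DMSO and 16.3, 1.53, 144, 0.441, 2.37 and 25.2 CPM with 4-OHT, so that it was lower in 5 of 6 lines and higher in S9484-A (-1.96 ± 0.89, adjusted p = 0.137). Spdef read 18.7, 25.4, 38.9, 41.7, 18.1 and 27.4 against 5.579, 1.474, 29.8, 2.139, 0.9555 and 15.6 CPM (-1.59 ± 0.58, adjusted p = 0.0605), and was called with the line as a block (-2.49, adjusted p = 0.0354). Zg16 was at -1.61 ± 0.77 (adjusted p = 0.16). Line S9484-A (replicate 3) had the highest 4-OHT level of Muc2, Zg16, Spdef, Tff3, Fcgbp and Gfi1. Its Eif4g2 level with 4-OHT was 99.3 CPM, within the range of the other lines. The part of the deletion in this difference between lines was not tested. Without the 4-OHT library of S9484-A 8 of 8 members were called, with Muc2 at -3.75 (adjusted p = 0.00273), Spdef at an adjusted p of 0.00276 and Zg16 at 0.00935. With the line as a block Muc2 was at -3.76 (adjusted p = 0.0758). Clca1 lost its call without any of 6 other libraries, DMSO replicates 2 and 4 and 4-OHT replicates 1, 2, 4 and 5 (adjusted p up to 0.165).

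**Figure D3:**
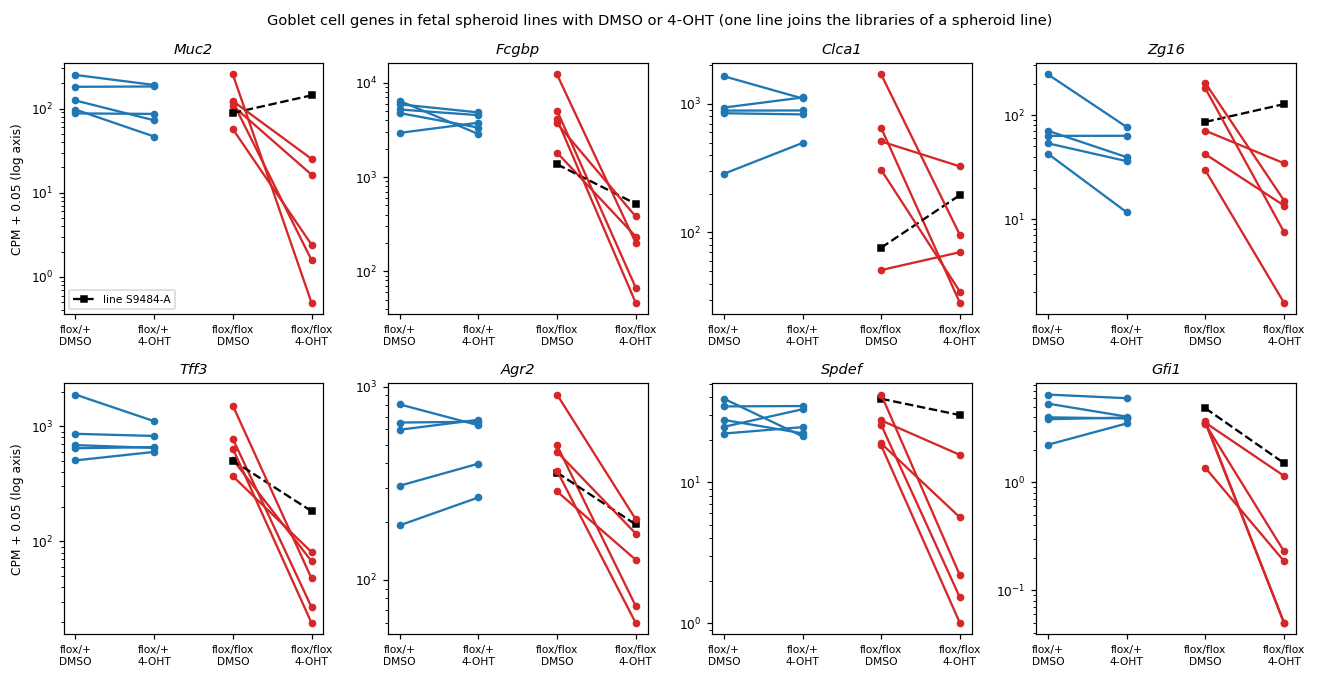
Level of each goblet gene in fetal spheroids with DMSO and with 4-OHT, in CPM plus 0.05 on a log axis, with 1 line per culture line, flox/flox and flox/+ apart. Line S9484-A is dashed with square points. Tff3 and Fcgbp fall in every flox/flox line, and Muc2 is higher with 4-OHT in S9484-A.

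In flox/+ spheroids none of the 8 members was called with 4-OHT, beside 0% of the 15032 genes tested, and none was with the line as a block. A missing call is not the absence of a change here. Eif4g2 itself was not called, at 611.6 to 1055 CPM with DMSO and 303.1 to 585.2 CPM with 4-OHT. The 95% intervals were wide, for example -2.318 to 1.619 for Muc2 and -2.806 to 0.682 for Zg16. Muc2 read 97.2, 125, 87.5, 250.5 and 181 CPM with DMSO and 46.4, 72.4, 86.3, 191 and 183 CPM with 4-OHT. The difference between the 4-OHT effects in flox/flox and flox/+ lines passed for Fcgbp (-3.88 ± 0.77, adjusted p = 0.0121) and Tff3 (-3.07 ± 0.68, adjusted p = 0.0242), beside 0.971% of all genes lower. The call of Tff3 was lost without flox/+ DMSO replicate 2 (adjusted p = 0.0536) or 4 (0.0521), and with the line as a block 4 members passed, Agr2 (-1.96, adjusted p = 0.00319) and Gfi1 (-3.42, adjusted p = 0.0132) being added. With 4-OHT in both, flox/flox lines had 5 members lower than flox/+ lines (6.13% of genes), led by Fcgbp at -3.97 ± 0.57. With DMSO in both, none was called, beside 0% of genes in either direction. In flox/flox lines 4-OHT lowered 10% and raised 9.01% of all genes tested, beside which the next counts stand. Of the lists, 9 of 12 lineage regulators fell in flox/flox lines and none rose, with Atoh1 at -2.56 ± 0.59, Foxa3 at -2.52 ± 0.31 and Creb3l1 at -1.69 ± 0.41. Other goblet products fell in 12 of 16 cases and rose in 1, and Klk1 changed by -4.45 ± 0.80 (adjusted p = 0.000765).

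Flox/+ spheroids and flox/+ organoids, both with 4-OHT, were compared next. The spheroids held more of 7 members, beside 25.1% of the genes tested, and Clca1 differed most. Clca1 read 1099, 826.3, 1119, 887 and 496.4 CPM in spheroids and 93.5, 70.1, 52.3 and 48.5 CPM in organoids (3.71 ± 0.30, adjusted p = 4.55e-05). Agr2 was higher by 1.72 ± 0.26 (adjusted p = 0.000589), Fcgbp by 1.68 ± 0.21, Tff3 by 1.45 ± 0.18, Gfi1 by 1.22 ± 0.26 (adjusted p = 0.00412) and Spdef by 1.04 ± 0.18 (adjusted p = 0.00115). Muc2 differed by 1.17 ± 0.42 (adjusted p = 0.0421), a call lost without any organoid line or spheroid replicates 4 or 5 (adjusted p up to 0.107), and Zg16 by -0.38 (adjusted p = 0.58). Summed gastric mucous markers were 13.36 to 55.6 CPM in these spheroids and 0.1487 to 0.4185 CPM in the organoids, and Tff2, one of the trefoil peptides, was higher by 7.46 ± 0.66 (adjusted p = 5.93e-05). Age of origin, culture form and line cannot be told apart here. Among flox/flox cultures, Fcgbp was lower in spheroids (-1.84 ± 0.57, adjusted p = 0.0379), the 1 call of 8, beside 9.45% of genes. That call was lost without any of 7 libraries, every organoid line and spheroid replicates 1, 2 and 4 (adjusted p up to 0.0855), while Tff3 (adjusted p = 0.00419) and Zg16 (0.0124) were called lower without spheroid replicate 3.

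With A-485, 3 of the 8 goblet genes rose at the lowest dose and all 8 fell at the highest. At 3 µM the protease Clca1 read 844, 1102, 559 and 626 CPM against 194, 157, 68.4 and 88.5 CPM with DMSO in lines S6026, S6070, S6074 and S6076 (2.60 ± 0.46, adjusted p = 0.00115). Zg16 read 366, 920, 492 and 330 against 121, 211, 87.5 and 115 CPM (1.96 ± 0.63, adjusted p = 0.0413). Neither overlapped with DMSO. Tff3 read 795, 954, 576 and 457 against 498, 401, 270 and 371 CPM (0.83 ± 0.20, adjusted p = 0.00668). These 3 rose, beside 10.8% of the genes tested, and Clca1, Zg16, Tff3, Fcgbp and Muc2 were higher than with DMSO in 4 of 4 lines. Fcgbp was at 0.76 ± 0.26 (adjusted p = 0.0559) and was called with the line as a block (0.71, adjusted p = 0.0325). Muc2 was at 0.63 ± 0.35 (adjusted p = 0.237), Agr2 at 0.51 ± 0.20 (adjusted p = 0.0777) and Gfi1 at 0.40 ± 0.63 (adjusted p = 0.714). Spdef split by line: it read 9.00, 22.6, 21.7 and 2.00 CPM against 17.0, 18.0, 15.6 and 12.9 CPM, higher in S6070 and S6074 and lower in S6026 and S6076. Zg16 lost its call without any 3 µM library or without DMSO replicates 1, 3 or 4 (adjusted p up to 0.117). Agr2 gained one without 3 µM replicate 1 (adjusted p = 0.0385) and Fcgbp without 3 µM replicate 4 (0.0342). With library totals 5 members were called, which moved the median of all genes by 0.121.

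At 5 µM the transcription factors had fallen while Clca1 was still raised. Spdef read 3.16, 4.78, 6.11 and 1.41 CPM (-2.06 ± 0.55, adjusted p = 0.00515) and Gfi1 0.881, 1.545, 0.827 and 0 CPM (-1.98 ± 0.67, adjusted p = 0.0241). Agr2 read 60.0, 59.7, 68.7 and 51.0 CPM against 151, 125, 114 and 128 CPM with DMSO, without overlap (-1.15 ± 0.20, adjusted p = 0.000126). Clca1 read 420, 295, 245 and 323 CPM, above all DMSO libraries (1.31 ± 0.44, adjusted p = 0.0231). In all 1 member was higher, beside 24.4% of genes, and 3 lower, beside 25.1%. Tff3 (0.48 ± 0.20, adjusted p = 0.0513) and Zg16 (0.79 ± 0.61, adjusted p = 0.306) were called with the line as a block (0.53, adjusted p = 0.00552, and 0.87, adjusted p = 0.000314). Muc2 was at -0.37 (adjusted p = 0.418) and Fcgbp at -0.14 (adjusted p = 0.694). Against 3 µM, 5 members were lower, beside 13% of genes: Agr2 (-1.66, adjusted p = 2.62e-05), Gfi1 (-2.38, adjusted p = 0.0188), Fcgbp (-0.90, adjusted p = 0.021), Spdef (-1.84, adjusted p = 0.0213) and Clca1 (-1.29, adjusted p = 0.0441). With the line as a block Muc2 (adjusted p = 0.013) and Zg16 (0.00228) were called in that comparison too.

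Some of these calls rested on single libraries. Against DMSO, Clca1 lost its call without 5 µM replicate 1 or DMSO replicates 3 or 4 (adjusted p up to 0.0686) and Gfi1 without 5 µM replicate 3 or DMSO replicates 1 or 4 (up to 0.0536). Tff3 was called without DMSO replicate 1 (adjusted p = 0.0183) or 5 µM replicate 4 (0.0455). Between 5 and 3 µM, Clca1 lost its call without any library but 5 µM replicate 1 (adjusted p up to 0.122), Spdef in 4 of 8 cases, 3 µM replicates 2 and 3 and 5 µM replicates 1 and 4 (up to 0.0744), and Fcgbp without 3 µM replicate 2 or 5 µM replicate 4 (up to 0.075). Muc2 was called without 3 µM replicate 3 (adjusted p = 0.0489).

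At 10 µM all 8 members fell, beside 32.6% of the genes tested, and no library overlapped with DMSO for any of them. Muc2 read 6.41, 9.95, 4.24 and 1.24 CPM against 204, 132, 108 and 163 CPM (-4.77 ± 0.43, adjusted p = 1.01e-07). Agr2 read 6.29, 9.19, 5.04 and 3.54 CPM (-4.43 ± 0.23, adjusted p = 5.62e-11). Fcgbp read 191, 267, 171 and 110 against 3856, 3549, 2807 and 3266 CPM (-4.21 ± 0.30, adjusted p = 4.66e-09). Spdef had 5 reads in the 4 libraries together (-7.50 ± 0.85, adjusted p = 6.79e-07). Gfi1 had 0 reads, which against a floor of 3 counts over the group is at least 65.4-fold lower than its DMSO mean of 3.183 CPM. Zg16 (-3.11 ± 0.67, adjusted p = 0.000917), Clca1 (-2.67 ± 0.47, adjusted p = 0.000152) and Tff3 (-2.12 ± 0.21, adjusted p = 8.37e-08) fell least, and Tff3 still read 95.5, 102, 88.0 and 74.4 CPM. The median change was -4.32, also with Gfi1 at its bound, against -0.049 over all genes. Against 5 µM, 8 of 8 members were lower, beside 12.4% of genes. The 3 doses share the DMSO libraries.

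**Figure D4:**
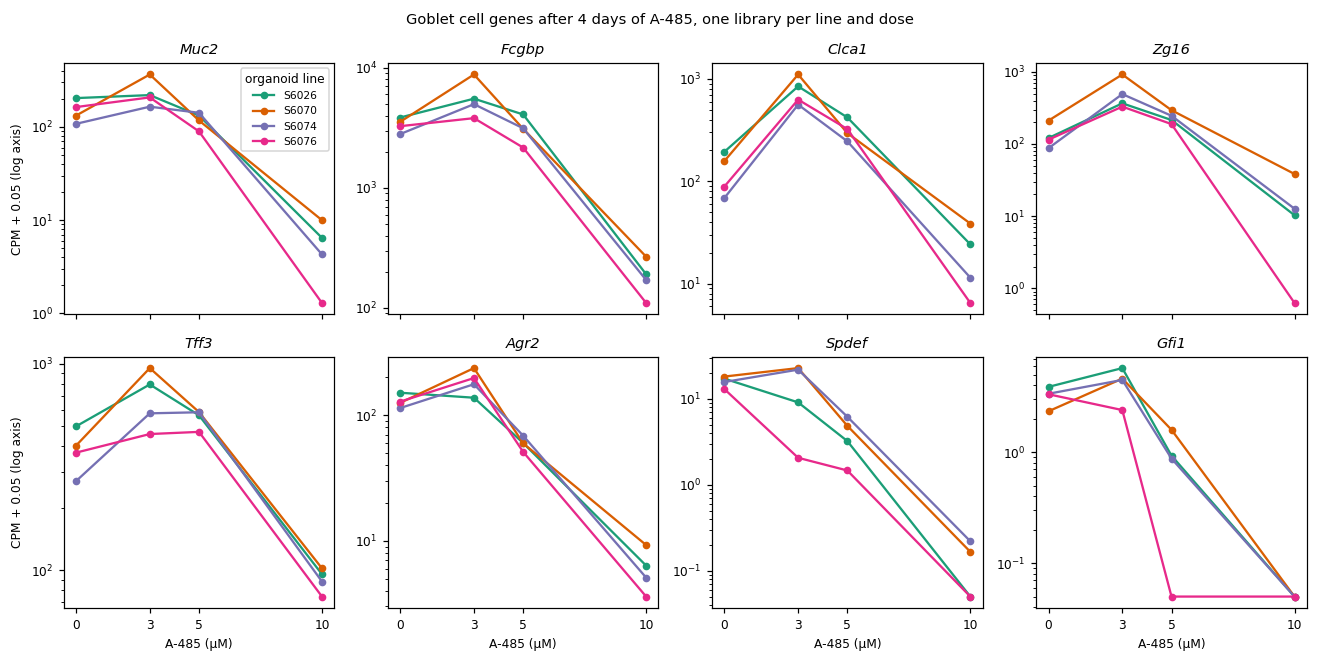
Level of each goblet gene by A-485 dose (0, 3, 5 and 10 µM), in CPM plus 0.05 on a log axis, 1 line per organoid line. Clca1 and Zg16 are higher at 3 µM than with DMSO in all 4 lines, and all 8 genes are lowest at 10 µM.

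Markers of other crypt cell types were lower at 3 µM in every line. Summed Paneth markers went from 3825 to 5637 CPM with DMSO to 462.8 to 598.1 CPM, summed enteroendocrine markers from 276.9 to 411 CPM to 16.54 to 85.93 CPM, and summed stem markers from 5276 to 6262 CPM to 684.3 to 1481 CPM. Of 12 lineage regulators 2 rose and none fell at 3 µM, 2 rose and 9 fell at 5 µM, and 1 rose and 10 fell at 10 µM. Atoh1 was at 0.17 ± 0.46 (adjusted p = 0.846), -1.95 ± 0.48 (adjusted p = 0.00279) and -6.62 ± 0.69 (adjusted p = 2.34e-07) in that order. Klf4 rose at 3 µM (0.78 ± 0.24, adjusted p = 0.0263) and 5 µM (0.95 ± 0.24, adjusted p = 0.00261) and was at 0.32 ± 0.23 (adjusted p = 0.251) at 10 µM. Ern2 was at 0.67 ± 0.37 (adjusted p = 0.234), -1.43 ± 0.39 (adjusted p = 0.00511) and -5.61 ± 0.52 (adjusted p = 4.22e-08).

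In all genes tested, 10.8%, 24.4% and 29.4% were called higher and 8.42%, 25.1% and 32.6% lower at 3, 5 and 10 µM. Of 22 O-glycosylation genes 9, 11 and 10 rose and 3, 6 and 8 fell at these doses; the share that fell at 5 µM (27.3%) and 10 µM (36.4%) was near that of all genes. The branching enzyme Gcnt1 was higher by 3.18 ± 0.32, 4.12 ± 0.33 and 4.76 ± 0.33, and the sialyltransferase St3gal1 changed by -1.83 ± 0.25, -4.26 ± 0.29 and -6.13 ± 0.34. Of 12 exocytosis genes 2, 4 and 4 rose and 1, 3 and 4 fell, and the shares that fell (8.33%, 25% and 33.3%) were near those of all genes. Unc13d, which primes granules for release, was higher by 3.15 ± 0.28, 4.93 ± 0.28 and 5.70 ± 0.29, and Nlrp6 changed by -0.92 ± 0.25, -1.51 ± 0.26 and -5.63 ± 0.31. Other goblet products fell in 5, 8 and 13 of 15 cases and rose in 1, 2 and 1. Of 9 folding genes 0, 3 and 3 fell and 0, 0 and 1 rose. Muc4 changed by -2.83 ± 0.22, -4.16 ± 0.23 and -9.00 ± 0.33.

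Clca1 moved apart from Muc2, its substrate, in several comparisons, so the log2 ratio of Clca1 to Muc2 counts was taken per library. The ratio does not depend on scaling. It was chosen after the values were seen, so a separation in some comparisons was known beforehand. The exact p-values here and within lines below are therefore a description and no support for a shift. In the second organoid set the ratio was 2.48 ± 0.576 (SD, n = 4) in flox/flox and 0.351 ± 0.406 (SD, n = 4) in flox/+ lines, a difference of 2.129 without overlap (exact two-sided permutation p = 0.0286, the smallest 4 against 4 can give, 0.0629 after Benjamini-Hochberg adjustment over 11 comparisons). At 3 µM A-485 it was 1.724 ± 0.166 (n = 4) against -0.341 ± 0.521 (n = 4) with DMSO, with the same exact p-values. These tests took libraries as independent, although the same lines gave both groups in the A-485 series, the first organoid set and the spheroids. The difference from DMSO was 1.75 at 5 µM and 2.254 at 10 µM, where both genes had fallen. In the first organoid set the ratio was 1.516 ± 0.291 (n = 3) with 4-OHT and -0.112 ± 0.449 (n = 3) with DMSO, without overlap (exact permutation p = 0.1, the smallest possible). Vil1-CreER crypts differed by 1.056 without overlap (exact permutation p = 0.0571, the smallest possible). In Rosa26-CreER crypts the difference was 0.796 (exact permutation p = 0.159) and in villi 0.438 (exact permutation p = 0.183), with overlapping groups. Vil1-CreER villi, where all 8 members fell, had the smallest difference, 0.204 (exact permutation p = 0.476). In flox/flox spheroids it was 2.289 with overlapping groups (exact permutation p = 0.0909). None of the 11 passed 0.05 after adjustment.

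Within spheroid lines, the ratio was higher with 4-OHT in 6 of 6 flox/flox lines, by 0.661 to 5.027 (mean 2.289 ± 1.572 SD, exact two-sided sign-flip permutation p = 0.0312, the smallest possible). It was also higher in 5 of 5 flox/+ lines, by 0.28 to 0.786 (mean 0.542 ± 0.221 SD, exact permutation p = 0.0625, the smallest possible), so a shift of this sign was not limited to lines losing both copies. The flox/flox shift was larger by 1.747 (exact permutation p = 0.013, a test added after the values were seen). The largest rise, 5.027, was in S9488-D, where Muc2 with 4-OHT was 0.441 CPM. Low Muc2 counts limit the ratio, since the lowest was 13 in flox/flox spheroids with 4-OHT and 13 at 10 µM A-485. Within lines the ratio was higher in 3 of 3 in the first organoid set (exact two-sided sign-flip permutation p = 0.25). It was higher in 4 of 4 at each A-485 dose (exact two-sided sign-flip permutation p = 0.125 at each). Both values are the smallest possible. Over these 6 within-line tests no Benjamini-Hochberg adjusted p was under 0.15.

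**Figure D5:**
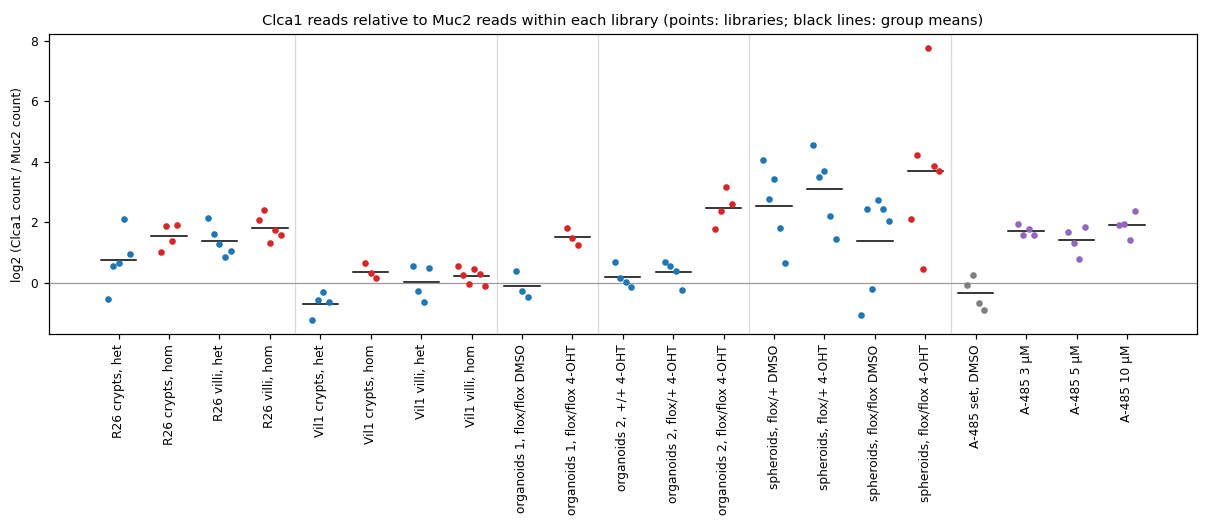
Log2 ratio of Clca1 to Muc2 counts in each library by group; points are libraries and lines group means. Flox/flox lines of the second organoid set and all A-485 doses lie above their controls without overlap, and villi of both Vil1-CreER genotypes overlap.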

How the data were processed

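RNA was measured by poly(A)-selected, random-primed, dUTP directional sequencing, per the labels' protocols. The authors deposited raw counts per gene, whole numbers without normalization, in 4 tables. HISAT2 2.0.5 and the build GRCm38 (mm10) are named in the submitters' processing notes; the counting program, annotation and strand setting are not given in the sources used here. Gfi1 and Zg16 overlap opposite-strand genes of at most 18 counts. All 92 libraries with a column were used; organoids in WENR medium, mentioned in the design text, were not analysed here. No pair of the 164 within-group library pairs was a duplicate.

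Low counts were removed by group with filterByExpr, and edgeR 4.0.16 (R 4.3.3) was run with TMM scaling and the robust quasi-likelihood F-test over all remaining genes; calls needed a Benjamini-Hochberg adjusted p under 0.05. The fits of tissue, of the first organoid set and of spheroids against organoids held only the groups compared, and those of the other sets held all their groups. All 8 members passed the filter in every comparison. SE is the log2 fold change divided by the square root of F. Levels are CPM after TMM scaling over the 92 libraries. Labels give an animal, a line or, for +/+ organoids, a letter for each library, and p-values measure the spread between libraries. Where 1 line or animal gave libraries to more than 1 group, the main fits took them as independent. The replicate block took in this pairing. The statistics were tested on simulated data. Exact permutation tests used SciPy 1.17.1 and figures matplotlib 3.10.9.

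The members and gene lists were chosen with earlier results of these data known. Genes outside the 8 were named by a rule: at most 2 called genes per list, comparison and direction with the largest fold change and at least 5 CPM in the higher group, plus Atoh1, Creb3l1, Ern2, Klf4 and Foxa3. The text gives a selection of them. Alternatives were DESeq2 1.42.0 (size factors and Wald test), no low-count filter, more or fewer groups per fit, a Y-linked covariate, a replicate block and leaving out each library; library totals in place of TMM and within-line tests of the Clca1 to Muc2 ratio were added after seeing the data. Replicates were paired by line or animal in the first organoid set (residual correlations 0.318 to 0.501), the A-485 series (0.046 to 0.3), spheroids treated against DMSO (0.327 to 0.765 in flox/flox, 0.62 to 0.838 in flox/+) and villi against crypts (-0.00247 to 0.164 and 0.0481 to 0.296). Promoter sequences are from RefSeq on GRCm38.p6, where 5 of the 8 symbols matched.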

Additional observations from a re-analysis of the deposited data

Results flagged for a closer look

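Of 144 combinations of gene and group with 4 to 10 libraries, 9 had a library far from the others by Dixon's ratio on the log2 scale; chance gives about 1 in 20. In Rosa26-CreER flox/+ crypts replicate 1 was high for Muc2, at 1080 CPM against 203 to 312. The villi of the same animal were low for Muc2 (306 CPM against 920 to 1320), Clca1 (1360 against 2311 to 2819) and Fcgbp (4430 against 10709 to 13336). In Vil1-CreER flox/flox villi replicate 1 was low for Zg16 (389 CPM against 617 to 776). At 5 µM A-485 line S6076 was low for Tff3 (468 CPM against 563 to 584). In spheroids, a flox/+ DMSO library (replicate 4) was high for Zg16 (245 CPM against 42.4 to 70.5), a flox/flox DMSO library (replicate 5) low for Gfi1 (1.32 against 3.42 to 4.81) and a flox/+ 4-OHT library (replicate 5) high for Gfi1 (5.97 against 3.47 to 4.02).

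Of 24 tests of a difference between effects, 7 passed. The flox/flox effect of Vil1-CreER mice was more negative in villi than in crypts for Tff3 (-1.33), Clca1 (-1.27), Zg16 (-1.8), Spdef (-0.93) and Gfi1 (-1.51). The 4-OHT effect in spheroids was more negative in flox/flox than in flox/+ lines for Tff3 (-3.07) and Fcgbp (-3.88).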

How the results depend on the processing

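The number of members called (called higher and lower together) moved by over 1.5 times in the following cases. Rosa26-CreER crypts (4) went to 2 without the low-count filter and to 2 with all groups of the table in the fit. With a Y-linked covariate the crypt result rested on 1 flox/flox library, so its count is not given. Without the filter, Rosa26-CreER villi (4) went to 2, the first organoid set (6) to 3 and 5 against 3 µM A-485 (5) to 2. At 3 µM A-485 the count (3) went to 5 with library totals or with its own groups alone. Flox/flox spheroids (5) went to 3 with their own groups alone. Flox/flox spheroids against organoids (1) went to 2 by the DESeq2 Wald test, 0 without the filter and 2 with the replicate block. The spheroid interaction (2) went to 4 by the DESeq2 Wald test, 1 without the filter and 4 with the replicate block. Values of single members that changed sign were, with the Y-linked covariate in Rosa26-CreER crypts, Clca1 0.321, Zg16 0.221 and Spdef 0.017; with library totals, Tff3 -0.414, Fcgbp -0.024 (Rosa26-CreER villi against crypts), Gfi1 -0.525 (Vil1-CreER villi against crypts) and Muc2 0.091 (Rosa26-CreER interaction); and with the replicate block by paired line, Clca1 -0.039 (first organoid set), and Clca1 0.101 and Gfi1 0.024 in flox/+ spheroids. The cause was not tested, except that dropping the filter tests more genes. With 1 library left out, the number called ran from 2 to 3 in Rosa26-CreER crypts, 2 to 6 in Rosa26-CreER villi, 2 to 5 at 5 µM A-485 (2 without DMSO replicate 4), 2 to 4 for 5 against 3 µM, 4 to 8 in flox/flox spheroids, 0 to 3 for flox/flox spheroids against organoids and 1 to 2 for the spheroid interaction. Signs changed in this way for Gfi1 in Vil1-CreER villi against crypts (-0.074 to 0.172), Clca1 in the first organoid set (-0.144 to 0.528), Spdef at 3 µM (-0.568 to 0.142), Fcgbp at 5 µM (-0.3 to 0.003), Spdef in flox/+ against +/+ organoids (-0.068 to 0.026) and Zg16 in flox/+ spheroids against organoids (-0.663 to 0.028). In flox/+ spheroids they did for Tff3 (-0.418 to 0.193), Clca1 (-0.273 to 0.268), Agr2 (-0.165 to 0.27) and Gfi1 (-0.191 to 0.167). Between spheroid genotypes with DMSO they did for Muc2 (-0.574 to 0.036), Tff3 (-0.694 to 0.11), Fcgbp (-0.639 to 0.109), Zg16 (-0.194 to 0.86), Agr2 (-0.364 to 0.152) and Spdef (-0.187 to 0.08), and in the Rosa26-CreER interaction for Muc2 (-0.754 to 0.386), Tff3 (-0.229 to 0.329), Fcgbp (-0.233 to 0.422), Agr2 (-0.035 to 0.255) and Spdef (-0.38 to 0.066). None of these was called with all libraries in. Over the members and comparisons, the DESeq2 Wald test changed 9 values to a call and 1 to no call, and the replicate block 16 and 6. Where the same numbers did not mark the same line or animal, same-numbered libraries had residual correlations from 0.0366 to 0.599 in Rosa26-CreER crypts, and the block added, for example, Muc2 there (-1.01, adjusted p = 0.0421) and removed Fcgbp (-0.41, adjusted p = 0.0862) in flox/flox against flox/+ organoids. Depth limits the low genes, since Gfi1 and Spdef had few or no reads at 10 µM A-485.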
